A study of Mus musculus with 8 samples.

Results

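The genes described here are 10 known targets of STAT5 that carry feedback on cytokine signals or act on cell survival and division: Cish, Socs1, Socs3, Bcl2l1, Bcl2, Bcl6, Pim1, Ccnd1, Ccnd2 and Cdkn1a. They were taken by name, through the RefSeq accession in each probe set's identifier, and all 10 were among the 14351 genes measured. Affymetrix arrays, which read transcripts with sets of short DNA probes, were run on colon RNA of adult mice. The WT group has 3 arrays from wild type females. The group labelled STAT5b-/- has 3 arrays from STAT5b-deficient mice, of which replicate 1 is labelled male and the others female. REF is wild type and female, and its role is not explained in the labels. Its 2 columns held the same values to within 2.47e-07 of the value and were counted as 1 sample. The labels do not give the allele, the strain, the age beyond adult or whether each array is a separate animal, so the spread between arrays may be technical. The labels name no change in Stat5a, the close relative of Stat5b.

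STAT5 proteins are phosphorylated by JAK kinases at receptors for growth hormone, prolactin and several interleukins, move to the nucleus and bind DNA. Among the genes they switch on are Cish and the Socs genes, whose proteins bind activated receptors or kinases and shut the signal off again. Others among them act on cell survival, such as Bcl2l1, which encodes the anti-apoptotic protein BCL-XL, or on entry into the cell cycle, such as the D-type cyclins. The STAT5A and STAT5B proteins bind the same type of DNA motif and partly stand in for each other.

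Values are ratios that average 1 over the WT arrays in every probe set, so they show differences of a gene between samples and not its level against another gene. For the same reason the colon identity of the samples could not be checked on the level of defining markers. Median ratios over all probe sets ran from 0.948 in REF to 1.04 in WT replicate 2. With limma and an adjusted p under 0.05, 1910 genes were higher and 1209 lower in the arrays labelled STAT5b-/-, which makes 61.2% of calls higher. With median centring these counts were 1826 and 1209. After quantile normalization, which gives every array the same distribution of ratios, they were 138 and 198, and 41.1% were higher. The Stat5b probe set had a log2 fold change of 0.26 ± 0.12 (SE; limma adjusted p = 0.175). Its ratios were 1.08, 0.930 and 0.993 in WT, 1.16, 1.17 and 1.26 in the arrays labelled STAT5b-/-, and 1.18 in REF. The Stat5b signal was thus not reduced in that group, and the arrays are named by their labels throughout.

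Of the 10 STAT5 target genes, Socs3 and Bcl2 fell and Bcl2l1 and Cdkn1a rose in the arrays labelled STAT5b-/-, while 6 did not pass the test. Socs3 was 2.34-fold and Bcl2 2.49-fold lower. Bcl2l1 was 1.95-fold and Cdkn1a 2.48-fold higher. After quantile normalization Socs3 was still called, while Bcl2l1, Bcl2 and Cdkn1a were not (limma adjusted p = 0.133, 0.127 and 0.378). The count of 4 called genes compares with 21.7% of all genes called in either direction, and the 2 risen and 2 fallen members with 13.3% and 8.42% of all genes. In 5 of the 10 genes the groups did not overlap, against 41.5% of all genes. The median log2 fold change of the 10 genes was -0.20, and that of all genes was 0.0068. The median size of the change, regardless of sign, was 0.26 in the 10 genes and 0.30 in all genes.

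**Figure D1:**
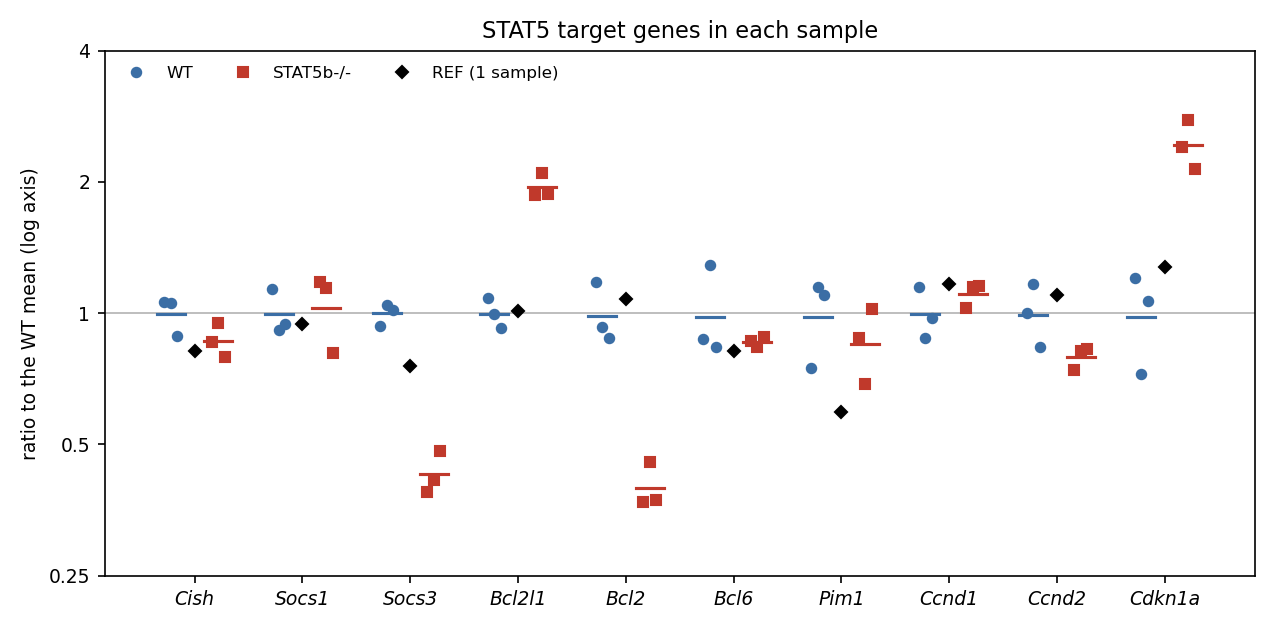
Ratio to the WT mean (log axis) of each STAT5 target gene in every sample, with WT arrays as circles, arrays labelled STAT5b-/- as squares, REF as a diamond and the mean of the log2 ratios as a bar. Socs3 and Bcl2 lie between 0.368 and 0.484 in all 3 arrays labelled STAT5b-/-, and Bcl2l1 and Cdkn1a between 1.87 and 2.78.

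The feedback genes did not move as a group. Cish encodes an SH2 domain protein that STAT5 induces and that binds activated cytokine receptors. It was read by the probe set NM_009895_at, which gave ratios of 1.06, 1.05 and 0.888 in WT and 0.857, 0.948 and 0.794 in the arrays labelled STAT5b-/-. The groups overlapped, since STAT5b-/- replicate 2 lay above WT replicate 3. Its log2 fold change was -0.21 ± 0.14 (SE), with a 95% interval from -0.53 to 0.12, and did not pass (limma adjusted p = 0.348). REF, a wild type sample, had a ratio of 0.820, below all WT arrays and inside the range of the arrays labelled STAT5b-/-. A fall of Cish by more than 0.53 on the log2 scale thus lay outside the interval.

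The window of the RefSeq promoter table around the Cish start site holds the motif TTCNNNGAA, the inverted repeat that STAT proteins bind, in 2 places next to each other. It is shown because Cish and the other genes below are the STAT5 target genes with such a match. The stretch runs over chr9:107296409-107296688 (GRCm38.p6, plus strand, RefSeq), with 250 bases before the start and 30 from it on, and capitals mark the matches.
Cish: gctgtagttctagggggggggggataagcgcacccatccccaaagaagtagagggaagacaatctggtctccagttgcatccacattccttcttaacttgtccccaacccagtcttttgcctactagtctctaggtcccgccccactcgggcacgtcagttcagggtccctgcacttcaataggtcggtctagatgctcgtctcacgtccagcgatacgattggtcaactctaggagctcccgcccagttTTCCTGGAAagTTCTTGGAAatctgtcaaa
The first match begins at the start site itself and the second 11 bases after it.

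Socs1, an inhibitor of JAK kinases, was read by NM_009896_at. Its ratios were 1.14, 0.917 and 0.944 in WT, 1.18, 1.14 and 0.810 in the arrays labelled STAT5b-/-, and 0.945 in REF. STAT5b-/- replicates 1 and 2 were at the top of all samples and replicate 3 was the lowest of all, so the arrays of that group differed more among themselves than from WT. The log2 fold change was 0.049 ± 0.19 (95% interval -0.39 to 0.49; limma adjusted p = 0.885). Without STAT5b-/- replicate 3 it was 0.22, and without WT replicate 2 or without STAT5b-/- replicate 1 or 2 it was slightly below 0.

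Socs3, which blocks signals of the IL-6 receptor family and of other cytokines that act through STAT3 and STAT5, was the feedback gene that fell. Its probe set NM_007707_at had ratios of 0.935, 1.04 and 1.02 in WT and 0.390, 0.414 and 0.484 in the arrays labelled STAT5b-/-. The groups were far apart, and REF lay between them at 0.756. The log2 fold change was -1.22 ± 0.13 (SE; limma adjusted p = 0.00159), and 6.24% of all genes had a larger change in either direction. Against REF alone the mean of the arrays labelled STAT5b-/- was lower by 0.82 on the log2 scale. With REF counted as a wild type array the log2 fold change was -1.12 (limma adjusted p = 0.00158). Within each array, the log2 ratio of Cish minus that of Socs3 was 0.18, 0.011 and -0.20 in WT, 0.12 in REF and 1.14, 1.19 and 0.71 in the arrays labelled STAT5b-/-, so the 2 feedback genes parted in every array of that group.

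The 250 bases before the Socs3 start site of the promoter table, chr11:117969367-117969616 (GRCm38.p6, minus strand, RefSeq), hold 1 match, 154 bases before the start, shown in capitals. They lie inside the RefSeq span of the gene, chr11:117966079-117970336, so this start is not its outermost end.
Socs3: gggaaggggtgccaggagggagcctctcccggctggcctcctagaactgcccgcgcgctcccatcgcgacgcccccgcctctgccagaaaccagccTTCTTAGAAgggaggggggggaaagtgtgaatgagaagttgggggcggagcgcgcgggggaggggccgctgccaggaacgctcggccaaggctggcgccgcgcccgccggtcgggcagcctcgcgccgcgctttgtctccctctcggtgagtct
Of the 8 STAT5 target genes found in the promoter table, Cish, Socs3 and Bcl6 had a match in at least 1 window, and Socs1, Bcl2, Bcl2l1, Pim1 and Cdkn1a had none. Ccnd1 and Ccnd2 were not matched there. The motif reads the same on both strands, and each window spans 300 bases, of which 250 lie before the start. Of all 32851 windows, 8.3% held it, as did 8.64% of the tested genes with a window. The share was 8.08% among genes called higher, 8.93% among genes called lower and 8.71% among genes not called. Over all tested genes with a window, the motif share thus differed by less than 1 percentage point between called and uncalled genes. Of the 4 called STAT5 target genes, 1 held a match.

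Other inhibitors of cytokine and kinase signals moved in both directions, with 4 of 17 measured genes higher and 3 lower (median log2 fold change 0.033). The shares over all genes, to set beside this list and those below, were 13.3% higher and 8.42% lower. After quantile normalization 0 were called. In the Socs family, Socs6 rose by 1.19 ± 0.22 (SE) and Socs4 by 1.08 ± 0.17, while Socs5 fell by 0.55 ± 0.15 (limma adjusted p = 0.0103, 0.00647 and 0.0408). Socs6 and Socs4 were thus about as far above WT as Socs3 was below it. Socs7 had a log2 fold change of 0.090 ± 0.12 and did not pass, and Socs2 was not analysed here. Ptprc (CD45), the tyrosine phosphatase found on all white blood cells, fell by 0.84 ± 0.13. Leaving out STAT5b-/- replicate 1, 2 or 3 gave 2, 3 and 2 higher and 1, 1 and 2 lower, and leaving out WT replicate 1 or 3 gave 3 higher with 1 and 2 lower. The sign of the median depended on the arrays kept, and it ran from -0.0068 without WT replicate 3 to 0.089 without WT replicate 1.

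Receptors, kinases and STAT factors upstream of these genes showed 0 rises and 3 falls among 23 measured (median log2 fold change -0.11). Csf2rb, the shared receptor chain for GM-CSF, IL-3 and IL-5, fell by 1.47 ± 0.22, and Il2rg, the chain shared by receptors for IL-2, IL-7 and IL-15, by 0.81 ± 0.17 (limma adjusted p = 0.00499 and 0.0178). Il15ra fell by 0.73 ± 0.18. The receptors for growth hormone and prolactin, Ghr and Prlr, did not pass, at log2 fold changes of -0.64 ± 0.22 and 0.68 ± 0.27 (limma adjusted p = 0.0802 and 0.129). Jak2, the kinase at those receptors, had 0.46 ± 0.24 and Stat5a -0.24 ± 0.15, neither of which passed. The count of falls was 2, 1 and 1 without STAT5b-/- replicate 1, 2 and 3, and 2, 4 and 1 without WT replicate 1, 2 and 3. Without WT replicate 2 there were also 2 rises and the median was -0.019, and after quantile normalization 0 genes of the list were called.

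The list of routes to STAT3, through which Socs3 is also induced, holds genes of the IL-6 family and of other cytokines such as IL-10. It had 0 rises and 3 falls among 15 measured. Of the falls, Il6st belongs to the IL-6 family, and Il10 and Il10ra to the IL-10 route. Il6st, the gp130 chain shared by receptors of the IL-6 family, fell by 0.64 ± 0.13 and Il10ra by 0.55 ± 0.15 (limma adjusted p = 0.0139 and 0.0453). Il10 fell by 1.98 ± 0.24, with ratios of 0.266, 0.239 and 0.232 in the arrays labelled STAT5b-/- and 0.293 in REF, which is wild type. Stat3 had a log2 fold change of 0.15 ± 0.14 and Il6 of -0.57 ± 0.37, and neither passed. The list's median log2 fold change was -0.38, and that of REF over WT was -0.27, with the WT arrays shared by both. Without any one of the arrays labelled STAT5b-/- the list had 1 fall, and without WT replicate 2 it had 2, with a median of -0.22. After quantile normalization 0 were called.

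**Figure D2:**
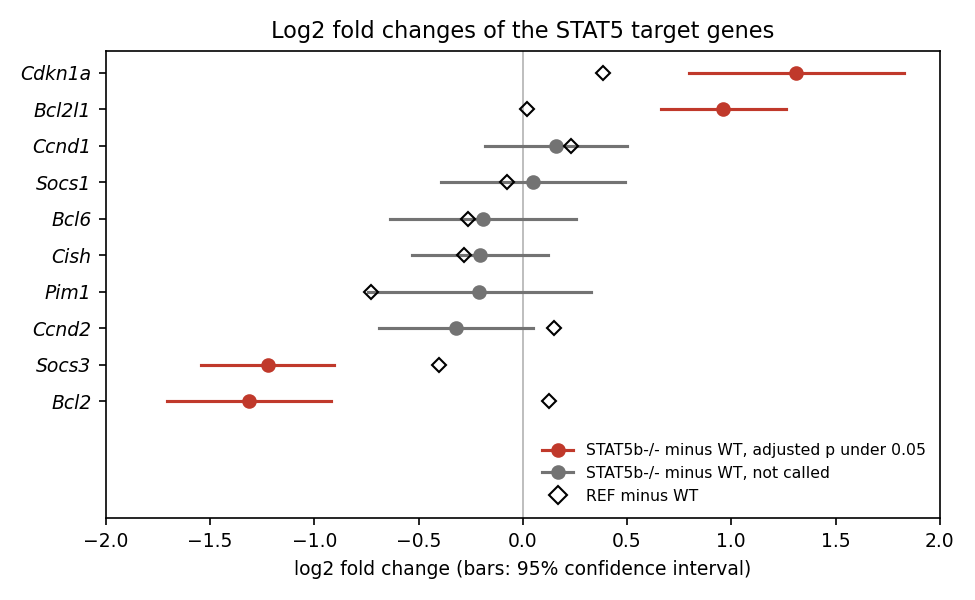
Log2 fold change of each STAT5 target gene in the arrays labelled STAT5b-/- against WT, with bars for the 95% confidence interval of the limma fit and diamonds for REF minus WT. The intervals of Socs3, Bcl2, Bcl2l1 and Cdkn1a lie away from 0, and the other 6 include it.

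The survival genes Bcl2l1 and Bcl2, close relatives that both block the mitochondrial route to apoptosis, moved in opposite directions. Bcl2l1, read by NM_009743_at, gave 1.08, 0.993 and 0.925 in WT and 1.87, 2.10 and 1.87 in the arrays labelled STAT5b-/-. REF lay with the WT arrays at 1.01. The log2 fold change was 0.96 ± 0.13 (SE; limma adjusted p = 0.00309), and against REF alone the difference was 0.94. It was 0.91 to 1.02 when any one array was left out, and 0.65 and not called after quantile normalization.

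Bcl2 was read by 2 probe sets, and both fell. NM_009741_at had ratios of 1.07, 1.06 and 0.870 in WT, 0.377, 0.407 and 0.384 in the arrays labelled STAT5b-/-, and 0.951 in REF. NM_177410_at had ratios of 1.30, 0.810 and 0.888 in WT, 0.359, 0.512 and 0.360 in the arrays labelled STAT5b-/-, and 1.22 in REF. In each probe set the groups were apart and REF lay within or close to the WT range. Tested singly among all 26180 probe sets, their log2 fold changes were -1.35 ± 0.13 and -1.27 ± 0.23 (limma adjusted p = 0.00157 and 0.0129). Averaged, Bcl2 fell by 1.31 ± 0.17 (limma adjusted p = 0.00266), and 5.3% of all genes had a larger change. After quantile normalization the change was -1.08 and was not called. Within each array, the log2 ratio of Bcl2l1 minus that of Bcl2 was -0.12, 0.098 and 0.073 in WT, -0.088 in REF and 2.34, 2.20 and 2.33 in the arrays labelled STAT5b-/-. The balance of the pair, relative to WT, was thus shifted by a similar amount in all 3 arrays of that group.

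Among 18 other measured genes of the BCL2 family, 6 rose and 0 fell, with a median log2 fold change of 0.30 against 0.0068 for all genes. Over all genes 13.3% were called higher. After quantile normalization 0 of the 18 were called, with a median of 0.22. The family holds proteins that block apoptosis and proteins that drive it. The genes that rose encode mostly the latter, but so do many of the genes not called. Uncalled drivers include Bbc3, Bmf and Hrk, at log2 fold changes of -0.071, -0.095 and -0.059. Bcl2l11, Bad and Bid were not called either, at 0.25, 0.40 and 0.63. Bak1, a pore-forming effector of apoptosis, rose by 0.81 ± 0.19 and Pmaip1 (NOXA), which neutralises MCL1, by 0.73 ± 0.11 (limma adjusted p = 0.0243 and 0.00574). Bok, a relative of BAX and BAK, rose by 0.70 ± 0.13, and Bax, Bik and Bcl2l13 were called as well. The anti-apoptotic Mcl1 and Bcl2l2 were not called, at log2 fold changes of -0.081 ± 0.12 and -0.24 ± 0.14 (limma adjusted p = 0.690 and 0.272). Bcl2 was thus the only member of the family, of the 20 measured, that was called lower, and Bcl2l1 the only one of the anti-apoptotic genes Bcl2, Bcl2l1, Bcl2l2 and Mcl1 that was called higher. The count of 6 became 2, 3 and 2 without STAT5b-/- replicate 1, 2 and 3, and 5, 7 and 3 without WT replicate 1, 2 and 3.

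**Figure D3:**
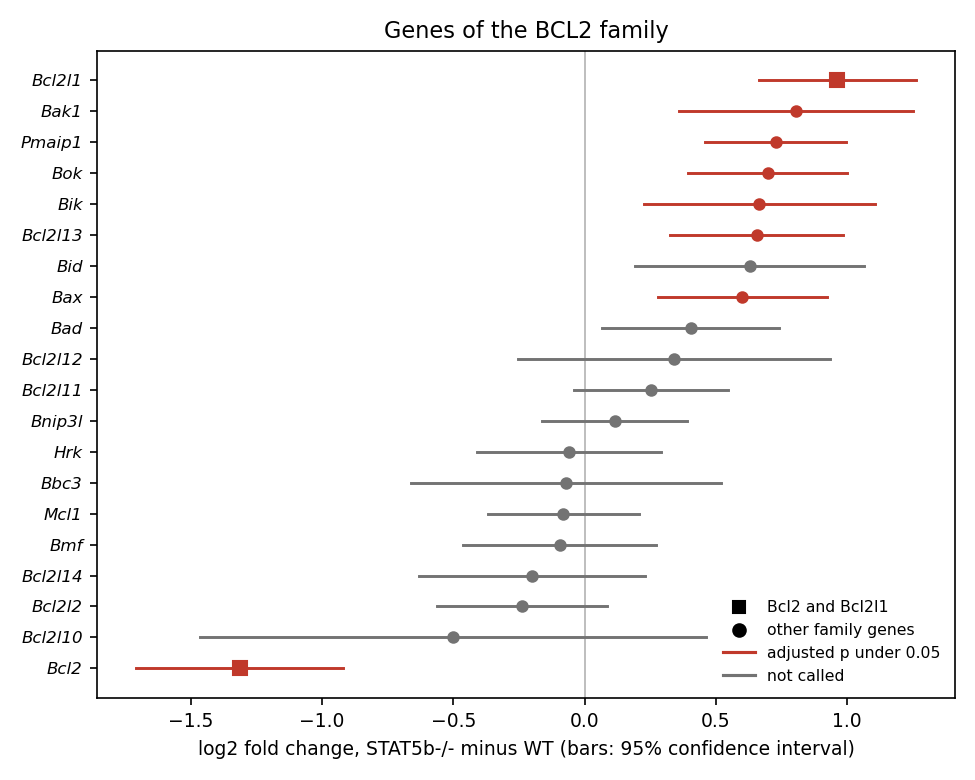
Log2 fold changes of measured BCL2 family genes in the arrays labelled STAT5b-/- against WT, with 95% confidence intervals of the limma fit. Bcl2 stands at -1.31, at the low end, and Bcl2l1 at 0.96, at the high end, with Bak1 at 0.81 next to it.

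Pim1 encodes a serine/threonine kinase that promotes survival downstream of cytokine receptors. Its probe set NM_008842_at had ratios of 0.750, 1.15 and 1.10 in WT and 0.875, 0.686 and 1.02 in the arrays labelled STAT5b-/-. The lowest value of all was that of REF, at 0.593, so wild type samples alone spanned the range of the other group. The log2 fold change was -0.21 ± 0.22 (95% interval -0.74 to 0.33; limma adjusted p = 0.570). Its relatives Pim2 and Pim3 were not called either, at log2 fold changes of -0.46 ± 0.25 and -0.20 ± 0.11.

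Bcl6, a transcriptional repressor of germinal centre B cells that STAT5 is known to repress in lymphocytes, was read by NM_009744_at. Its ratios were 0.874, 1.29 and 0.835 in WT, 0.862, 0.836 and 0.882 in the arrays labelled STAT5b-/-, and 0.817 in REF. WT replicate 2 stood above all other samples, which lay close together. The log2 fold change was -0.19 ± 0.19 (95% interval -0.63 to 0.26; limma adjusted p = 0.534), and without WT replicate 2 it was 0.0087. Of the gene's 2 promoter windows, one holds 1 match to TTCNNNGAA and the other holds 3. Windows with at least 3 matches are rare, with 11 among the 32851 in the table, and this one is shown for that reason. It lies at chr16:23981284-23981533 (GRCm38.p6, minus strand, RefSeq), with the matches in capitals 168, 122 and 88 bases before the start. This stretch is inside the RefSeq span of the gene, chr16:23965050-23988866, so its start is an internal one.
Bcl6: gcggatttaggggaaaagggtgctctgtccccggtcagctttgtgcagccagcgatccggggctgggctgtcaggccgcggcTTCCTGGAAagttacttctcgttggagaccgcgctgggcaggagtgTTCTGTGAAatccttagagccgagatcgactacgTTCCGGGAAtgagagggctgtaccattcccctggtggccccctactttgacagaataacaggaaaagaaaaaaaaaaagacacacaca

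Genes that BCL6 represses and its corepressors had 1 rise and 3 falls among 16 measured. Prdm1, which encodes BLIMP1 and which BCL6 represses, rose by 1.64 ± 0.15 (limma adjusted p = 0.000908). Its ratios were 0.854, 1.13 and 1.01 in WT, 3.22, 2.78 and 3.34 in the arrays labelled STAT5b-/- and 0.992 in REF. BLIMP1 acts in plasma cells and also in gut epithelium. Irf4, another regulator of plasma cells, fell by 2.24 ± 0.20, and Gpr183, a chemoattractant receptor of lymphocytes, by 1.58 ± 0.24 (limma adjusted p = 0.000771 and 0.0056). Bcl6 itself did not pass, while Prdm1 and Irf4 moved apart from each other. After quantile normalization the list had 1 rise and 1 fall.

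The cell cycle genes of the set also went different ways. Cdkn1a encodes p21, an inhibitor of cyclin-dependent kinases, and was read by NM_007669_at. Its ratios were 1.21, 0.724 and 1.07 in WT, 2.40, 2.78 and 2.15 in the arrays labelled STAT5b-/-, and 1.28 in REF. The groups were apart although the WT arrays differed among themselves by 1.67-fold, the widest WT spread of the 10 genes. The log2 fold change was 1.31 ± 0.22 (limma adjusted p = 0.00715), against 0.39 for REF over WT. Against REF alone the difference was 0.93, and without WT replicate 2, the lowest, the change was 1.10 (limma adjusted p = 0.00408). After quantile normalization it was 0.80 and was not called.

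Cyclins D1 and D2, encoded by Ccnd1 and Ccnd2, activate CDK4 and CDK6 and drive cells through G1. Ccnd1, read by NM_007631_at, had ratios of 1.15, 0.878 and 0.975 in WT, 1.03, 1.15 and 1.15 in the arrays labelled STAT5b-/-, and 1.17 in REF. Its groups overlapped, and REF was the highest of all. Its log2 fold change was 0.16 ± 0.14 (95% interval -0.18 to 0.50; limma adjusted p = 0.498). Ccnd2, read by NM_009829_at, had ratios of 1.00, 1.16 and 0.836 in WT and 0.740, 0.817 and 0.827 in the arrays labelled STAT5b-/-. The groups did not overlap, but by a small margin, and REF stood with WT at 1.10. Its log2 fold change was -0.32 ± 0.16 (95% interval -0.69 to 0.050; limma adjusted p = 0.199). Within each array, the log2 ratio of Ccnd1 minus that of Ccnd2 was 0.20, -0.41 and 0.22 in WT, 0.086 in REF and 0.48, 0.49 and 0.48 in the arrays labelled STAT5b-/-.

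Other G1 cyclins, kinases and inhibitors had 3 rises and 0 falls among 20 measured, while 13.3% of all genes were called higher and 8.42% lower. The median log2 fold change of the list was 0.33, and 0.25 for REF over WT, both against the same WT arrays. Cdkn2b (p15), an inhibitor of CDK4 and CDK6, rose by 1.01 ± 0.15, and the phosphatase Cdc25a by 0.64 ± 0.14 (limma adjusted p = 0.00437 and 0.0175). Cdkn2c rose by 0.50 ± 0.14, and REF lay at a log2 ratio of 0.57. The sibling of p21, Cdkn1b (p27), had 0.069 ± 0.15, and Ccnd3 had 0.78 ± 0.24 and missed the threshold (limma adjusted p = 0.798 and 0.0616). The list had 1, 1 and 2 rises without STAT5b-/- replicate 1, 2 and 3, and 2, 3 and 2 without WT replicate 1, 2 and 3. After quantile normalization 0 were called and the median was 0.19. Proliferation genes had 2 of 20 higher, Rrm2 and Mcm2, and 0 lower, with a median of 0.075 against 0.47 for REF over WT. By the list's median, a wild type sample thus lay higher than the arrays labelled STAT5b-/- did. In Rrm2 and Mcm2 themselves REF lay lower, at ratios of 1.24 and 1.22 against at least 1.46 and 1.45 in that group. The 2 rises of the proliferation list became 1, 0 and 1 without STAT5b-/- replicate 1, 2 and 3, and without WT replicate 2 there was also 1 fall. The median of that list was -0.023 without WT replicate 2 and -0.0058 after quantile normalization, which left 0 calls.

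Cdkn1a is a classical target of p53, and of 21 other measured p53 targets 6 rose and 2 fell (median log2 fold change 0.10). Of all genes, 13.3% were called higher and 8.42% lower. Bax and Pmaip1, among the 6 that rose, are also counted in the BCL2 family list above. Gadd45a, a stress-induced growth arrest gene, rose by 1.46 ± 0.14, and Sesn2, a stress protein that restrains mTORC1, by 1.41 ± 0.29 (limma adjusted p = 0.000908 and 0.0146). Mdm2, the ligase that degrades p53, rose by 0.81 ± 0.12, while the kinase Plk2 fell by 1.15 ± 0.18 (limma adjusted p = 0.00478 and 0.00619). The p53 targets Ccng1, Phlda3 and Rrm2b were not called, at log2 fold changes of -0.23, -0.14 and -0.10. The list had 4 rises and 1 fall without any one of the arrays labelled STAT5b-/- or without WT replicate 3, and 5 and 1 without WT replicate 1. The median was 0.20 without STAT5b-/- replicate 2, 0.18 without WT replicate 2 and 0.038 after quantile normalization, which left 0 calls.

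Of 27 other measured genes known as STAT5 targets, 1 rose and 2 fell, with a median log2 fold change of -0.11. Gfi1, a transcriptional repressor of blood and secretory gut cells, had the largest change of that list and fell by 2.55 ± 0.14 (limma adjusted p = 0.000132), to ratios of 0.151, 0.182 and 0.177. Prr15l rose by 1.51 ± 0.19 and Tnfrsf11a (RANK) fell by 0.75 ± 0.20. Myc, Igf1, Mcl1, Il2ra and Foxp3 did not pass. The counts were 3 and 2 without WT replicate 1 and 1 and 1 without WT replicate 2, WT replicate 3 or STAT5b-/- replicate 2. The median was -0.20 without WT replicate 1, -0.17 without STAT5b-/- replicate 3 and -0.034 without WT replicate 2. After quantile normalization there were 0 rises, 1 fall and a median of -0.064.

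**Figure D4:**
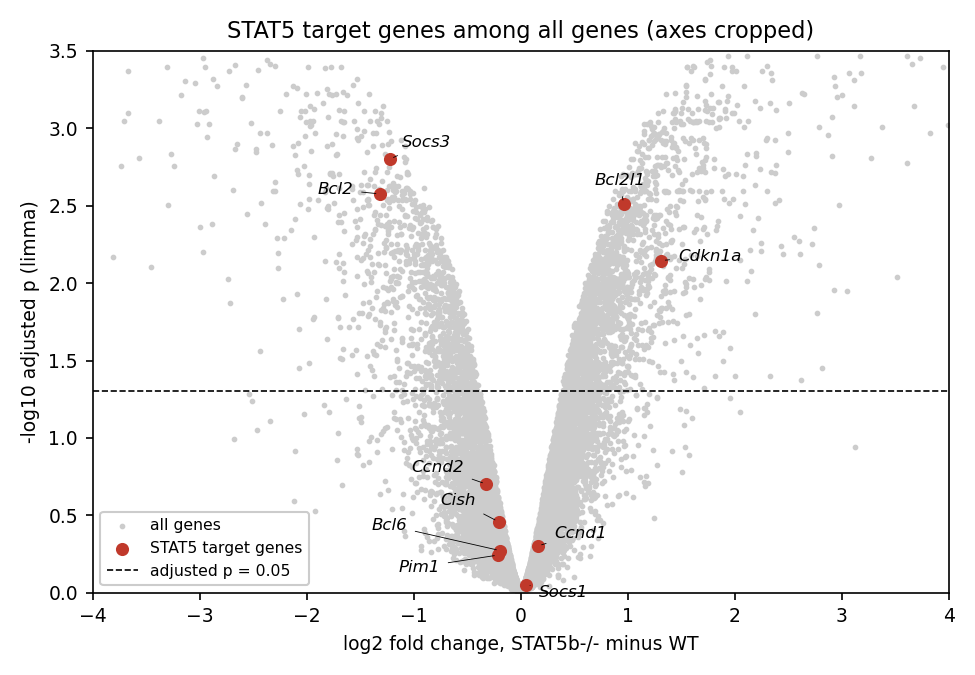
Log2 fold change against -log10 adjusted p of the limma fit for all genes (grey, axes cropped) and the 10 STAT5 target genes (red), with the threshold as a dashed line. Socs3, Bcl2, Bcl2l1 and Cdkn1a lie above it, and Ccnd2, at an adjusted p of 0.199, is the nearest of those below.

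The whole tissue was measured, so fewer cells of a type and less RNA per cell cannot be told apart. Markers of several cell types moved with the group, while 8.42% of all genes were called lower and 13.3% higher. Among markers of B and plasma cells, 6 of 13 fell and 1 rose (Sdc1, which epithelium also expresses), with a mean ratio over the list of 0.443 to 0.570 in the arrays labelled STAT5b-/-, 0.774 to 1.18 in WT and 0.812 in REF. Of 13 macrophage and dendritic cell markers 8 fell, with mean ratios of 0.562 to 0.722 against 0.889 to 1.16 in WT. Fibroblast markers fell in 8 of 12, with 0.626 to 0.707 against 0.909 to 1.05. These lists were low in the same arrays as Socs3 and Bcl2, genes that immune and stromal cells express too. Of 12 T cell markers 3 rose and 2 fell, with 1.13 to 1.18 against 0.907 to 1.13.

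Markers of colon epithelium were high in the same arrays as Bcl2l1 and Cdkn1a. They rose in 7 of 13 and fell in 1, against 13.3% of all genes higher and 8.42% lower. Their mean ratio was 1.52 to 1.74 in the arrays labelled STAT5b-/-, 0.964 to 1.04 in WT and 1.09 in REF. Those called higher included Car1 (1.62 ± 0.24), Aqp8 (1.45 ± 0.15) and Fabp2 (1.19 ± 0.21), genes of mature absorptive cells. Whether any marker is absent in a sample could not be read from ratios. The part of these lists in the changes of Socs3, Bcl2, Bcl2l1 and Cdkn1a was not tested. The macrophage and dendritic cell list had 4 falls without STAT5b-/- replicate 1 or 2 and 5 without WT replicate 2 or 3. The epithelial list had 3 and 4 rises without STAT5b-/- replicate 2 and 3, and the T cell list 1 without either of these. Neither the rise of Sdc1 nor the fall in the epithelial list (Krt18) was called without any one array. After quantile normalization the epithelial list had 0 calls, B and plasma cell markers 3 falls, macrophage and dendritic cell markers 1, fibroblast markers 4 and T cell markers 1.

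**Figure D5:**
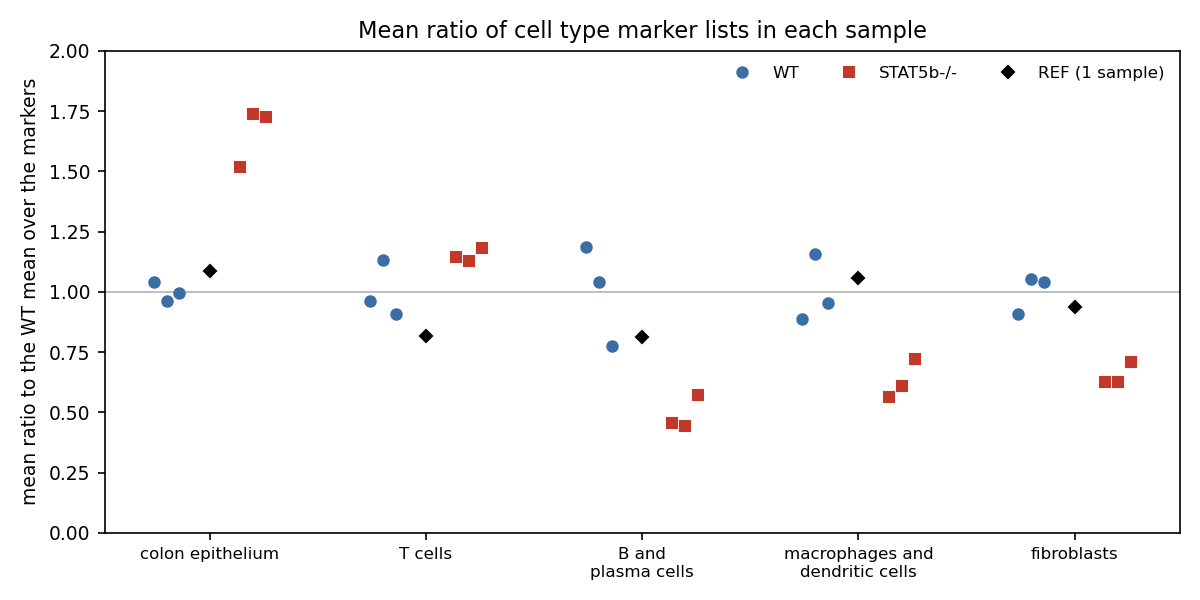
Mean ratio to the WT mean over the measured markers of each cell type list, by sample, on an axis that starts at 0. Fibroblast, macrophage and dendritic cell, and B and plasma cell lists lie below all WT arrays in the 3 arrays labelled STAT5b-/-, and the colon epithelium list lies above them.

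REF could be compared with the WT arrays only as 1 sample against 3. It has no spread of its own, so a test could hardly call a gene, and differences alone are given. The median log2 difference of REF over WT was -0.051 over all genes. REF lay outside the range of the WT arrays in 6 of the 10 genes, below it in 4 and above it in 2, against 48.4% of all genes. Those below were Cish, Socs3, Bcl6 and Pim1, and those above were Ccnd1 and Cdkn1a. Socs3 and Cdkn1a, which were called in the arrays labelled STAT5b-/-, were thus also shifted the same way in this wild type sample, by -0.40 and 0.39 on the log2 scale. Bcl2 and Bcl2l1 were not, with 0.12 and 0.021. Both comparisons share the WT arrays.

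The genes whose log2 ratios followed the called STAT5 target genes most closely over the 7 samples were found among 14088 named genes. For Socs3 these were Folr2 (r = 0.997), Sel1l3 (0.994) and Creld2 (0.994), and 409 genes had an r over 0.95. For Bcl2 they were Cd2 (0.994), Capn8 (0.993) and Usp4 (0.991), and 292 genes had an r over 0.95. Golt1a (0.996), Dio1 (0.995) and Ydjc (0.995) came first for Bcl2l1, and Cyp4f13 (0.996), Vps26b (0.995) and Dgkz (0.994) for Cdkn1a. For these 637 and 548 genes had an r over 0.95. The points are 3 WT arrays, 3 arrays labelled STAT5b-/- and REF, so the gap between the groups enters every r.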

How the data were processed

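RNA from 8 samples, 100 ng each, was measured on Affymetrix arrays, and RMA is named without a version in the submitters' processing notes. The deposited values are ratios: per probe set the authors' linear values average 1 over the 3 WT arrays, to within 1.87e-07, with a lowest value of 0.01. Neither the array type nor other steps are given in the sources used here, and such ratios hold no signal over background, so the number of arrays limits the precision.

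Of 26180 probe sets, 15228 matched a symbol in the RefSeq gene table (GRCm38.p6), giving 14351 genes; 10952 matched none. Ratios were taken to log2, probe sets of a gene averaged, and arrays labelled STAT5b-/- compared with WT by limma 3.58.1 (lmFit, eBayes; R 4.3.3), two-sided, p-values adjusted by Benjamini-Hochberg over the 14351 genes and called under 0.05. SD, SE and intervals rest on 3 arrays a group. For SE and intervals, eBayes also drew each gene's variance towards a value estimated over all 14351 genes. The code was tested on simulated data.

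The members and lists were chosen with earlier results of these data known. Genes named are the 10 targets, Stat5a, Stat5b, up to 3 called and non-overlapping genes of a list with the largest change, and 3 nearest patterns per called target. Others named beside them were chosen after their values were seen. Alternatives covered the replicate block, normalization, probe set choice, floor, pseudocount, robust eBayes, REF as WT, and each array left out.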

Additional observations from a re-analysis of the deposited data

How the results depend on the processing

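Socs3, Bcl2, Bcl2l1 and Cdkn1a kept their direction under every alternative run for them (Bcl2, with 2 probe sets, has no value among genes with a single probe set), and were called without any one array, with median centring, robust eBayes, a pseudocount of 0.1 and REF counted as WT. Without one array each, the 10 targets had 4 calls throughout and all genes 1716 to 3551, of which 1914, 1716 and 1852 without STAT5b-/- replicate 1, 2 and 3. Quantile normalization left 336 genes and 1 target called: Socs3 (log2 fold change -0.95, limma adjusted p = 0.0255). Bcl2l1 was then 0.65, Bcl2 -1.08 and Cdkn1a 0.80 (limma adjusted p = 0.133, 0.127 and 0.378), and Socs1 -0.036. Median centring left 3035 genes called. Quantile normalization gives every array the same distribution, while the deposited ratios average 1 over the WT arrays alone. How far this scaling accounts for the lost calls was not tested. Left-out arrays moved Socs1 from -0.049 to 0.22 and Bcl6 from -0.31 to 0.0087. Testing every probe set singly, chosen after seeing the data, called 5099 of 26180, which also counts unnamed ones. With the replicate number as a block, 2039 genes were called and all 4 targets kept their call, while the other BCL2 family genes had 4 rises, the G1 list 2 and the epithelial list 5 with 0 falls. Same-numbered arrays had correlations of deviations of 0.0355, -0.0984 and -0.186, and differently numbered ones ran from -0.137 to 0.216. The labels state no pairing. These correlations cannot decide it, since deviations from the mean of 3 arrays depend on each other. The motif was found in 2 of 8 targets when only the 250 bases before the start were searched, without Cish. With 3 arrays a group and no detection calls, small changes of the 6 uncalled targets cannot be resolved.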

Other observations

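Regulators of colon growth in the Wnt and Krueppel-like families had 1 rise and 1 fall among 16 measured. Ascl2, a transcription factor of crypt stem cells, rose by 0.48 ± 0.13, and Axin2, a feedback gene of Wnt signals, fell by 0.74 ± 0.14 (limma adjusted p = 0.0370 and 0.0103). The list had 0 rises without any one array other than WT replicate 2, and 0 falls without STAT5b-/- replicate 2. In REF, Axin2 had a ratio of 1.33, above all WT arrays.

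Of the remaining cell type lists, mast cell markers fell in 4 of 10, with mean ratios of 0.399 to 0.503 in the arrays labelled STAT5b-/- and 0.709 to 1.55 in WT, and in 2 without STAT5b-/- replicate 1 or 3 or WT replicate 1. Neutrophil markers fell in 1 of 9 (Il1b), endothelial markers in 2 of 12 (Lyve1 and Tek) and enteric nervous system markers in 1 of 9 (Snap25). Without any one of the arrays labelled STAT5b-/- the neutrophil and nervous system lists had 0 calls, and without WT replicate 3 the neutrophil list had 3 falls. Smooth muscle markers had 0 of 9 called by limma and 0 at an unadjusted p under 0.05, with mean ratios of 0.906 to 1.29 against 0.844 to 1.20 in WT. After quantile normalization 0 genes of the growth, mast cell, neutrophil, endothelial, nervous system and smooth muscle lists were called.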
